A study of Saccharomyces cerevisiae with 60 samples.

Results

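The genes described here encode the proteins of the cytoplasmic ribosome of budding yeast, that is, every nuclear gene whose standard name is RPL or RPS followed by a digit. The annotation holds 132 such genes among 6002 nuclear protein-coding genes, 76 of them RPL genes of the large subunit and 56 RPS genes of the small subunit. Of these, 118 lay in the stretches of the genome that all libraries share, among 5217 ORFs and 5216 upstream regions analysed, and 102 of the 118 belong to a pair of paralogs named A and B while 16 do not. The 14 that were not analysed here lie on chromosome IV or XV, right of the sites where the control constructs were integrated, and were left out since the windows there do not hold the same sequence in every library (RPL4B, RPL12B, RPL20B, RPL27B, RPL33B, RPL37B, RPS10A, RPS11A, RPS12, RPS13, RPS17B, RPS18A, RPS28A and RPS30B). The ORF, taken as the annotated span from start to end with any intron, and the 500 bp upstream of its start codon were measured apart.

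Ribosomal protein genes are among the most strongly transcribed genes of growing yeast, and their promoters are bound by Rap1, Fhl1 and Ifh1, with Sfp1 adjusting their output to nutrients. Strongly transcribed coding regions are known to give ChIP signal for proteins that do not bind there, and even with antibodies that have no target in the cell. Fkh1 is a forkhead transcription factor that binds promoters of genes of the G2/M transition and a subset of replication origins.

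The study measured by ChIP-seq how far control strains expressing an epitope-tagged bacterial LexA protein account for such background. The data hold 60 libraries in 20 groups of 3, and all strains share the W303 background with BAR1 deleted, grown in rich medium at 23 °C. Unsynchronized cultures carried Fkh1-FLAG or Fkh1-MYC alone, Fkh1-FLAG with the FLOP construct or Fkh1-MYC with the MOP construct, the DNA-binding mutant fkh1-dbm with a FLAG or MYC tag, a LexA construct alone (FLOP, MOP or HOP), or no tag at all. Cultures held in G1 with α-factor for 3.5 h carried Fkh1-FLAG (FLOP), Fkh1-MYC (MOP), Orc1-HA (HOP), Mcm4-HA (HOP) or Sir2-FLAG (FLOP), or FLOP, MOP or HOP alone. Tagged Fkh1 was expressed from its own locus, LexA-FLAG (FLOP) from the TEF1 promoter, and LexA-MYC (MOP) and LexA-HA (HOP) from the ADH1 promoter. MOP and FLOP were integrated at ADE2 and HOP at TRP1. The untagged strain was precipitated with anti-FLAG, anti-MYC or anti-HA. For unsynchronized HOP and untagged cells the anti-HA precipitation used a pair of antibodies (12CA5 and 16B12), and in G1 the antibody 12CA5 alone.

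Signal is given as multiples of the library's 20th percentile window, so that 1 is the level of that window. Library totals were between 2116658 and 44263661 window counts, replicates of a group correlated with r between 0.947 and 0.995 across genes, and every one of the 118 ribosomal protein genes passed the minimum count in every comparison. BAR1, deleted in these strains, was at 0 in 55 of the 60 libraries and reached at most 0.0961. Labels do not say whether replicates came from separate cultures, so p-values measure the spread between these libraries, which may be technical. Log2 fold changes and adjusted p-values come from the quasi-likelihood test of edgeR, adjusted over all genes by the method of Benjamini and Hochberg, and a gene was called at an adjusted p below 0.05. Genes named for a fold change were picked among called members whose groups did not overlap. Non-overlap stated for such a gene is thus no further support.

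With anti-FLAG and no tagged protein in the cell, the ORFs of ribosomal protein genes stood near the top of the genome. Their median ORF signal was 2.28 in the untagged anti-FLAG libraries, against 1.19 for all genes, and 117 of the 118 lay above the median of all genes. The log2 ratio of the ribosomal protein median to the median of all genes was 0.93 ± 0.08 (SD, n = 3), and 30 of the 100 highest ORFs of the genome were ribosomal protein genes. The same strain had a log2 ratio of -0.06 ± 0.19 for anti-MYC and -0.14 ± 0.09 for anti-HA (SD, n = 3 each).

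The highest member was RPL3, which encodes a protein close to the peptidyl transferase centre and has no paralog. Its ORF signal was 7.91, 7.15 and 7.64 in the 3 untagged anti-FLAG libraries, rank 15 of all genes. RPL10, whose protein joins the large subunit late in its maturation, followed with 6.05, 5.77 and 6.31, and RPL8A with 5.48, 5.28 and 5.50. These 3 genes were high in each library, with little spread between replicates. The lowest member was RPL15B, the minor copy of the RPL15 pair, with 0.972, 0.983 and 1.1, whereas its paralog RPL15A had 4.17, 4.19 and 4.70. RPS21A (mean 1.53) and RPL41B (mean 1.41) were the next lowest. Paralogs of RPL8 also differed, since RPL8B had 2.81, 2.57 and 2.66. Near-identical paralogous ORFs can share reads, so that levels within a pair are less certain than those of the 16 genes without a paralog. Those 16 had a median log2 ratio to all genes of 1.53 in the untagged anti-FLAG libraries, against 0.90 for the 102 genes with a paralog. RPL and RPS genes differed little, with log2 ratios of 0.92 and 0.94.

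The order of members was another one in the untagged anti-MYC libraries, which were shallow. Their 20th percentile window held 6, 14.5 and 10.5 counts, against 96, 101.5 and 79 for untagged anti-FLAG. In the untagged anti-MYC libraries RPL8A was the lowest member (0.428, 0.853 and 0.905) and RPL2B (0.451, 1.22 and 1.13) and RPL15A were close to it, and the highest was RPS25B with 2.32, 1.70 and 1.16. Replicates of this group spread widely for RPL2B and RPS25B. With anti-HA, RPL3 was again the highest (1.51, 1.73 and 1.65), and RPL41B the lowest (0.592, 0.5 and 0.884). Across the 118 members, Spearman's rho of the mean ORF signal with that of the untagged anti-FLAG libraries was 0.606 for untagged anti-HA and -0.0593 for untagged anti-MYC. Groups with a MYC-tagged protein had rho between 0.452 in Fkh1-MYC (MOP) and 0.864 in fkh1-dbm-MYC. Whether depth accounts for the low value in untagged anti-MYC was not tested. The points share gene length and sequence, and rho with ORF length itself was 0.219.

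**Figure D1:**
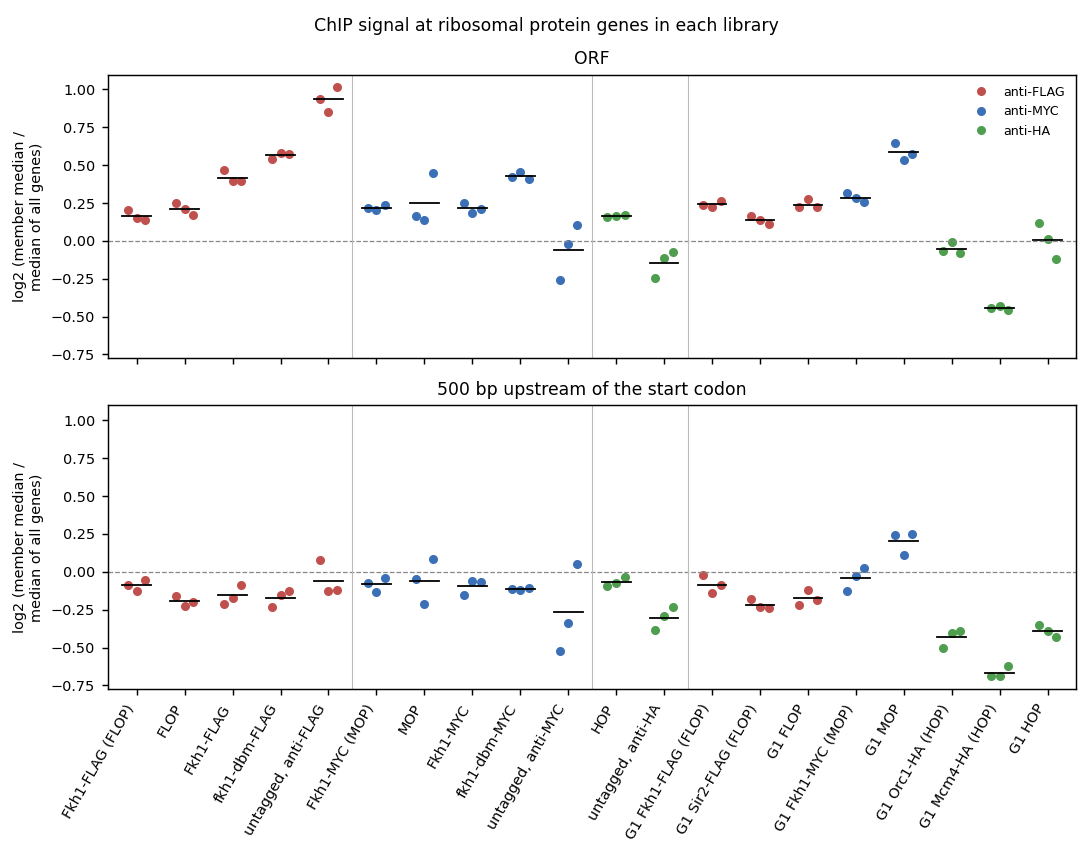
Log2 ratio of the median signal of the 118 ribosomal protein genes to the median of all genes, for ORFs (upper panel) and the 500 bp upstream (lower panel). Each point is a library, bars are group means and colours mark the antibody, and the untagged anti-FLAG libraries have the highest ORF ratio (mean 0.93) while G1 Mcm4-HA (HOP) has the lowest (mean -0.44).

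The excess of the median lay inside the ORF, and the upstream median, as a group mean, was not above that of all genes. Even so, 7 of the 100 highest upstream regions in untagged anti-FLAG libraries were those of ribosomal protein genes. Distances from the start codon are along the chromosome, so they can run through introns and past the end of short genes. Averaged over members, the untagged anti-FLAG signal was highest in the window 500 bp after the start codon (2.87) and lowest 400 bp before it (0.914). The same shape with a lower summit appeared for fkh1-dbm-FLAG (2.09 at 500 bp), Fkh1-FLAG (1.83 at 550 bp) and FLOP (1.5 at 500 bp). In G1 MOP the highest window was also 500 bp after the start codon. By group mean, the upstream median of ribosomal protein genes was below that of all genes in 19 of the 20 groups. The log2 ratios lay between -0.67 in G1 Mcm4-HA (HOP) and -0.04 in G1 Fkh1-MYC (MOP), and the exception was G1 MOP at 0.20. Single libraries of these groups were above 0: untagged anti-FLAG replicate 1 (0.075), untagged anti-MYC replicate 3 (0.053), MOP replicate 3 (0.085) and G1 Fkh1-MYC (MOP) replicate 3 (0.027).

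**Figure D2:**
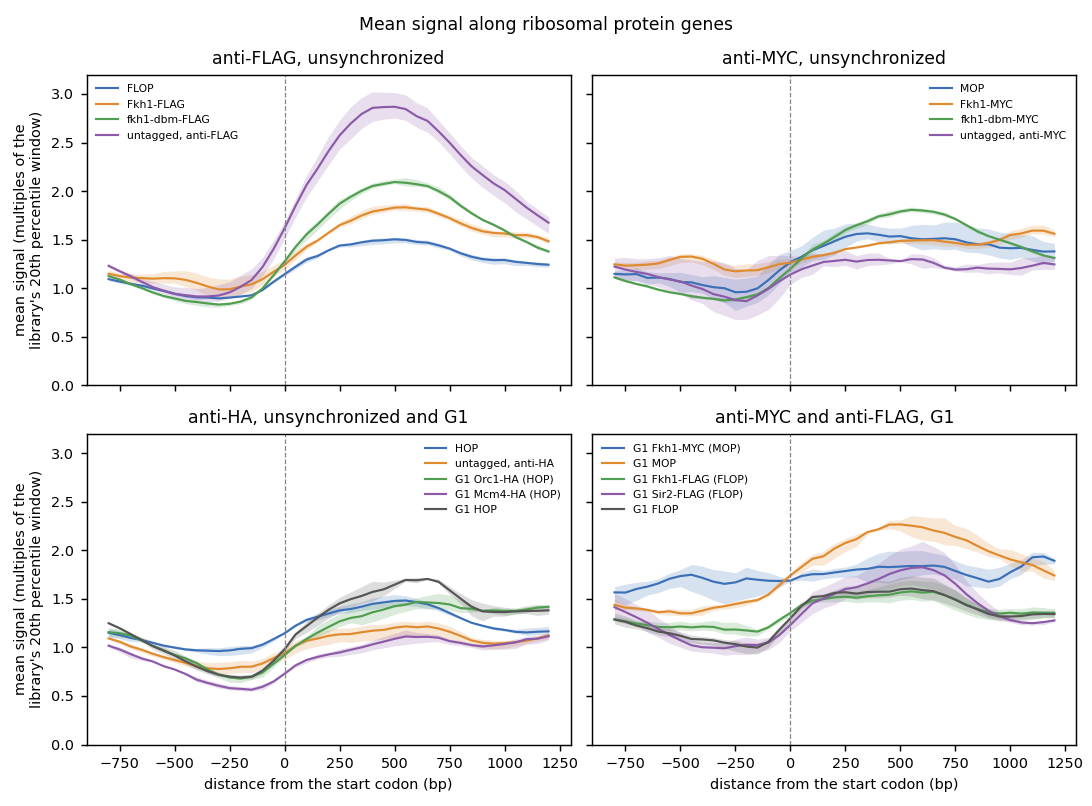
Mean signal over the ribosomal protein genes against the distance from the start codon in bp, with the lowest and highest replicate as a band, in multiples of the library's 20th percentile window. The curve of the untagged anti-FLAG libraries rises after the start codon to 2.87, and FLOP, Fkh1-FLAG and fkh1-dbm-FLAG reach 1.5, 1.83 and 2.09.

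FLOP cells were compared with untagged cells, both precipitated with anti-FLAG, which asks how the anti-FLAG background changes once the antibody has a target. Nearly all ribosomal protein ORFs fell. Of 118 members, 117 were called lower and 0 higher in FLOP, whereas 23% of all genes were called lower and 9.93% higher. The median log2 fold change was -0.78 for members and -0.05 for all genes, with members between -1.97 and 0.05. FLOP lay below untagged cells without overlap for 116 members, against 28.6% of all genes.

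RPL3 had 2.21, 2.16 and 2.20 in FLOP, against 7.91, 7.15 and 7.64 in untagged cells (log2 fold change -1.79 ± 0.05 SE, adjusted p = 2e-32). RPL8A had 1.32, 1.33 and 1.39 in FLOP, against 5.48, 5.28 and 5.50 in untagged cells (-1.97 ± 0.06, adjusted p = 1.6e-30). For both genes every FLOP library was below every untagged library. RPL10 had 1.78, 2 and 1.89 in FLOP, against 6.05, 5.77 and 6.31 in untagged cells (-1.68 ± 0.06, adjusted p = 1.5e-27). RPL3, RPL8A and RPL10 fell by more than most members. They were picked as highest in the untagged libraries from which the fall is measured, so its size is partly set by that choice. RPL8B had 1.41, 1.29 and 1.42 in FLOP, against 2.81, 2.57 and 2.66 in untagged cells, so that the RPL8 paralogs, unequal in untagged cells, had overlapping values in FLOP. RPL15B was the member not called, with 1.01, 1.08 and 1.14 in FLOP, against 0.972, 0.983 and 1.1 in untagged cells (0.05 ± 0.10, adjusted p = 0.77). Members without a paralog had a median log2 fold change of -1.15 and those with one of -0.75.

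Other genes of the translation machinery moved alongside. Of 8 translation elongation factor genes, 6 were called lower in FLOP ORFs and 0 higher (median log2 fold change -1.43), as were 5 of 5 genes of the ribosomal P-stalk and ASC1 (median -0.87) and 18 of 19 ribosome biogenesis genes (median -0.49). Of 4 regulators of ribosomal protein genes, 2 were lower (median -0.17). Mitochondrial ribosomal protein genes, which encode a separate ribosome, had 12 higher and 4 lower of 56, with a median of 0.00. These lists, like the members, were chosen with earlier results of these data known.

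Upstream of the ribosomal protein genes, 32 members were called lower and 2 higher in FLOP, against 5.15% and 9.18% of all genes. The median log2 fold change was -0.13 for members and 0.04 for all genes. Without untagged anti-FLAG replicate 1 the count of lower members was 21. RPS22B fell most, with 1.46, 1.61 and 1.56 in FLOP, against 3.62, 3.29 and 4.04 in untagged cells (-1.27 ± 0.11, adjusted p = 8.3e-18), and RPL29 and RPL3 fell by 0.98 and 0.85 on the log2 scale. The upstream region of the paralog RPS22A had 1.1, 0.949 and 1.05 in FLOP, against 1.18, 0.987 and 0.982 in untagged cells, which overlap.

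RPL36A, which encodes a large-subunit protein, went the other way and had 2.10, 2.46 and 1.96 upstream in FLOP, against 1.2, 1.17 and 1.16 in untagged cells (1.03 ± 0.10, adjusted p = 2e-14), with its highest window 270 bp before the start codon at chromosome XIII 650851 to 650900 in R64 coordinates (2.89). All FLOP libraries were above all untagged libraries. The paralog did not share these values: RPL36B had 0.899, 1.09 and 1.05 in FLOP, against 1.18, 0.879 and 0.946 in untagged cells.

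HOP cells were compared with untagged cells, both precipitated with anti-HA. Here the change at ribosomal protein genes was small and upward. In ORFs 33 members were called higher and 0 lower, against 1.88% of all genes higher and 1.13% lower, and the median log2 fold change was 0.28 for members and -0.01 for all genes. RPL43A, a large-subunit gene, had 1.32, 1.46 and 1.25 in HOP, against 0.812, 0.880 and 0.794 in untagged cells (0.71 ± 0.11, adjusted p = 2.3e-06). RPL13A had 1.51, 1.58 and 1.46 in HOP, against 0.889, 1.01 and 1.13 in untagged cells (0.59 ± 0.09, adjusted p = 4.3e-06). RPL2B had 1.80, 1.86 and 1.72 in HOP, against 1.1, 1.15 and 1.30 in untagged cells (0.59 ± 0.08, adjusted p = 1.9e-07). The groups did not overlap for these 3 genes, which was a condition for naming them. The count fell to 7 without untagged anti-HA replicate 1 and to 15 without HOP replicate 1, and was 57 with TMM normalization, 57 with DESeq2 and 7 with all 60 libraries in 1 fit. Of the other lists, 3 of 5 P-stalk genes and 4 of 8 elongation factor genes were called higher in HOP.

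Upstream, 25 members were called higher and 0 lower in HOP, against 2.98% and 0.346% of all genes (median log2 fold change 0.29 for members and 0.03 for all genes). This count rested on single libraries: it was 3 without untagged anti-HA replicate 1, 8 without its replicate 2, and 13, 7 and 8 without HOP replicates 1, 2 and 3. It was 0 with all 60 libraries in 1 fit. RPL13A was highest by fold change, with 0.766, 0.913 and 0.974 in HOP, against 0.455, 0.536 and 0.724 in untagged cells (0.65 ± 0.16, adjusted p = 0.0075), but it was not called without untagged replicate 1 (adjusted p = 0.17), without untagged replicate 2 (0.079) or without HOP replicate 3 (0.093).

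MOP cells were compared with untagged cells, both precipitated with anti-MYC. In ORFs 5 members were called higher in MOP and 0 lower, against 0.384% of all genes higher and 0.0769% lower, and the median log2 fold change was 0.23 for members and -0.08 for all genes. The 5 were RPS3, RPL3, RPL2B, RPL28 and RPS4B. RPS3, which lines the mRNA entry of the small subunit, had 1.88, 1.29 and 1.78 in MOP, against 0.815, 1.09 and 1.06 in untagged cells (0.76 ± 0.19, adjusted p = 0.031). RPL3 had 1.99, 1.72 and 2.13 in MOP, against 1.14, 1.03 and 1.44 in untagged cells (0.73 ± 0.16, adjusted p = 0.0042). Groups did not overlap for either gene. The count was 1, 2, 1 and 0 without untagged anti-MYC replicates 1 and 2 and MOP replicates 1 and 3, and 11 with all 60 libraries in 1 fit, 8 with TMM normalization. Of 8 elongation factor genes, 2 were called higher. Upstream, 0 members were called in either direction (6 had an unadjusted p below 0.05, and TMM normalization and DESeq2 called 0 as well), where 0% of all genes were called higher and 0.0192% lower.

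The 3 LexA controls were also set against each other, by testing whether the change from untagged to LexA-expressing cells differed between them. Antibody, tag and untagged level differ in each pair, and FLOP also differs from MOP and HOP in its promoter. These cannot be told apart here. The change at ribosomal protein ORFs was more negative in FLOP than in MOP for 103 members (6.09% of all genes) and more negative in FLOP than in HOP for 116 (14.9% of all genes), and more positive for 0 in both (4.05% and 7.26% of all genes). Between MOP and HOP, 0 members differed in either direction (0.115% of all genes higher and 0.0576% lower; 9 members had an unadjusted p below 0.05, and DESeq2 called 1 lower). The MOP and untagged anti-MYC libraries were shallow, with 20th percentile windows of 6 to 15.5 counts. In HOP and untagged anti-HA these were 46 to 101 counts. Small differences between MOP and HOP may thus go uncalled, and the 0 does not show equal changes. Both differences with FLOP use the same FLOP and untagged anti-FLAG libraries.

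**Figure D3:**
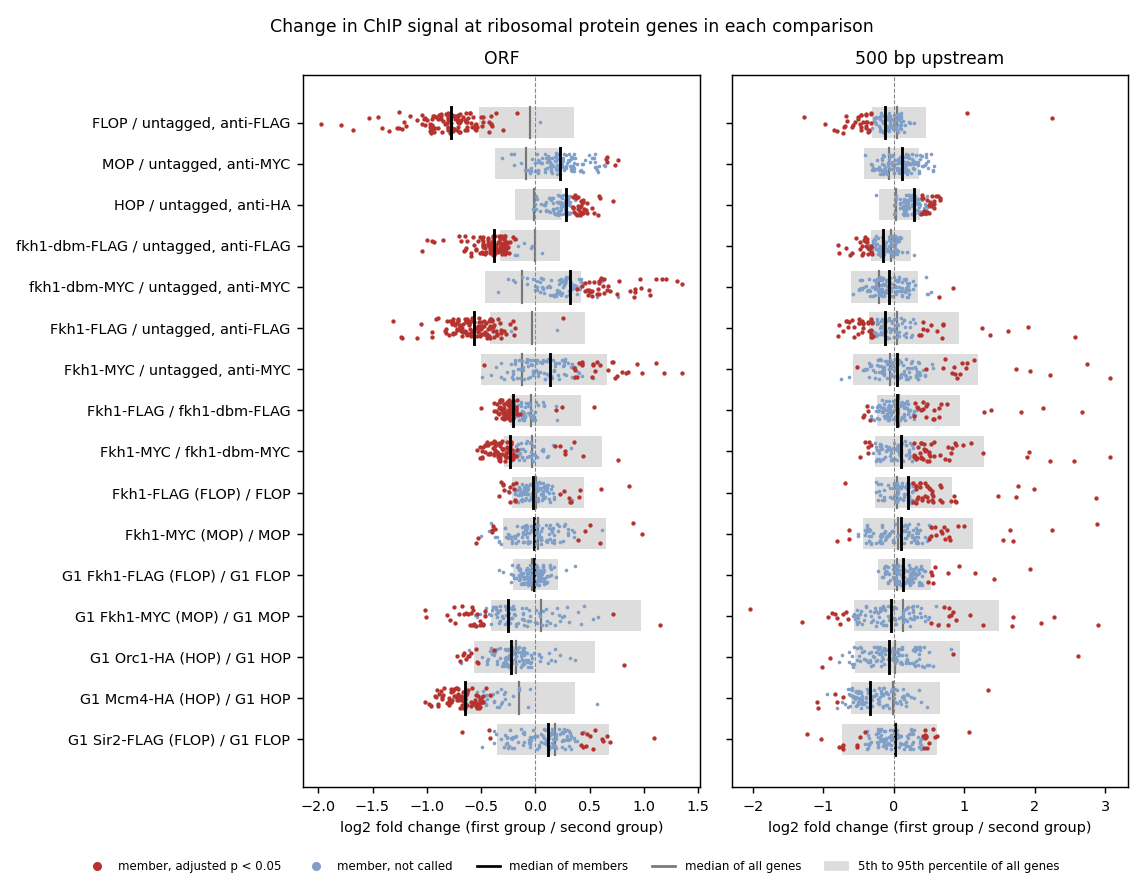
Log2 fold changes of the 118 ribosomal protein genes (points) in the 16 comparisons, ORFs on the left and upstream regions on the right, with the median of members, the median of all genes and the 5th to 95th percentile of all genes. Points called by edgeR are red; the ORF median is -0.78 for FLOP against untagged cells, -0.64 for G1 Mcm4-HA (HOP) against G1 HOP and 0.32 for fkh1-dbm-MYC against untagged cells.

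The fkh1-dbm mutant, which cannot bind DNA through its forkhead domain, was compared with untagged cells under the same antibody. With the FLAG tag ribosomal protein ORFs again fell. Of 118 members, 109 were called lower and 0 higher, against 11.5% and 8.47% of all genes, with a median log2 fold change of -0.38 for members and -0.00 for all genes. RPL3 had 4.02, 4.08 and 3.72 in fkh1-dbm-FLAG, against 7.91, 7.15 and 7.64 in untagged cells (-0.95 ± 0.05, adjusted p = 3e-27). RPL8A had 2.59, 2.59 and 2.81 in fkh1-dbm-FLAG, against 5.48, 5.28 and 5.50 in untagged cells (-1.04 ± 0.05, adjusted p = 3.6e-26). RPL28, which has no paralog, had 2.70, 2.79 and 2.70 in fkh1-dbm-FLAG, against 5.69, 4.83 and 5.72 in untagged cells (-1 ± 0.05, adjusted p = 5.6e-26). In each of these genes the mutant libraries were below all untagged libraries and stayed above the genome median of 1.21 in fkh1-dbm-FLAG. With all 60 libraries in 1 fit, 53 members were called lower. Upstream 24 members were lower and 0 higher (5.03% and 2.63% of all genes), and 14 without untagged anti-FLAG replicate 1, 11 without fkh1-dbm-FLAG replicate 1 and 4 with all 60 libraries in 1 fit.

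With the MYC tag the same mutant had ORFs above its untagged control. In ORFs 40 members were called higher in fkh1-dbm-MYC and 0 lower, against 4.53% and 4.15% of all genes, with a median log2 fold change of 0.32 for members and -0.12 for all genes. RPL3 had 2.77, 3.25 and 3.01 in fkh1-dbm-MYC, against 1.14, 1.03 and 1.44 in untagged cells (1.35 ± 0.13, adjusted p = 1.3e-05). RPL8A had 1.83, 1.95 and 1.83 in fkh1-dbm-MYC, against 0.428, 0.853 and 0.905 in untagged cells (1.31 ± 0.17, adjusted p = 0.00018). RPL15A had 2.18, 2.46 and 2.05 in fkh1-dbm-MYC, against 0.875, 0.966 and 1.05 in untagged cells (1.2 ± 0.14, adjusted p = 7.7e-05). Groups were apart for all 3, and the 3 were also among the highest members with anti-FLAG in untagged cells. The members without a paralog had a median of 0.66, against 0.31 for the others. Without fkh1-dbm-MYC replicates 1, 2 and 3 the count was 18, 18 and 21, and it was 63 with TMM normalization and 68 with DESeq2. Of the other lists, 6 of 8 elongation factor genes and 2 of 5 P-stalk genes were called higher. Upstream 2 members were higher (RPS22B and RPS26B) and 0 lower (1.65% and 3.67% of all genes), and RPS22B had a log2 fold change of 0.84 ± 0.16 (adjusted p = 0.013), which was not called without any 1 of the mutant libraries (adjusted p between 0.087 and 0.15). The upstream count was 0 without any 1 mutant library, 1 without untagged anti-MYC replicate 1 or 2, and 7 without its replicate 3, and without replicate 2 of the untagged libraries 4 members were called lower. TMM normalization gave 5 and DESeq2 7 higher, and the median of members there, -0.07, was 0.13 with TMM.

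Members ranked alike in fkh1-dbm with either tag and in untagged anti-FLAG libraries. Across the 118 members Spearman's rho with untagged anti-FLAG was 0.901 for fkh1-dbm-FLAG and 0.864 for fkh1-dbm-MYC, against 0.829 for Fkh1-FLAG, 0.723 for FLOP, 0.553 for MOP and 0.426 for G1 Mcm4-HA (HOP). These are descriptions over genes that share length and sequence, and genes are not independent replicates.

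Fkh1 was compared with fkh1-dbm under the same tag, which asks what depends on DNA binding. A few upstream regions rose several-fold, and most ORFs were slightly lower. Upstream 22 members were called higher and 5 lower with the FLAG tag (24.1% and 2.8% of all genes), and 41 higher and 6 lower with the MYC tag (35.9% and 5.53% of all genes). All 22 of the FLAG calls were also higher with the MYC tag, where they make up 53.7% of the calls, and 22.6% of all genes were called higher with both tags. The 2 comparisons share no library. Neither count of higher members is a larger share than that of all genes. The medians of members were 0.04 and 0.10 and became -0.05 and -0.05 with TMM normalization, where the calls were 17 higher and 18 lower for FLAG and 31 and 25 for MYC. Without fkh1-dbm-FLAG replicate 2 the lower FLAG calls were 2, and without Fkh1-MYC replicate 2 the lower MYC calls were 11. With all 60 libraries in 1 fit the FLAG calls were 13 and 0, and the lower MYC calls 2.

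The upstream region of RPS1B, which encodes a small-subunit protein, had the highest Fkh1 signal of the family. It had 4.51, 4.94 and 6.47 in Fkh1-FLAG, against 0.829, 0.988 and 0.894 in fkh1-dbm-FLAG (2.67 ± 0.11, adjusted p = 4.7e-41, rank 7 of all genes). It had 6.39, 7.26 and 7.05 in Fkh1-MYC, against 0.895, 0.846 and 0.953 in fkh1-dbm-MYC (3.07 ± 0.10, adjusted p = 2.1e-36, rank 9). The mutant was at the level of untagged cells, which had 1.08, 0.954 and 0.820 with anti-FLAG. The highest window was at chromosome XIII 146001 to 146050, with 11.1 in Fkh1-FLAG and 14.7 in Fkh1-MYC, 456 bp before RPS1B and 150 bp before the divergent TEM1, a GTPase gene of mitotic exit, in a gap of 605 bp. The signal thus cannot be assigned to either gene from its position. The study tested the DNA binding of the mutant by gel shift with a TEM1 probe. Whether that probe covers this window was not checked here. The paralog RPS1A had 1.40, 1.58 and 1.46 upstream in Fkh1-MYC, against 1.1, 1.14 and 1.22 in fkh1-dbm-MYC.

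RPS22A and RPL39 are divergent neighbours, both ribosomal protein genes, and share 1 summit in the 630 bp between them. RPS22A had 2.62, 3.26 and 3.77 in Fkh1-FLAG, against 0.845, 0.873 and 0.949 in fkh1-dbm-FLAG (2.12 ± 0.11, adjusted p = 7.4e-34). It had 4.66, 4.82 and 4.84 in Fkh1-MYC, against 0.935, 0.831 and 1.17 in fkh1-dbm-MYC (2.56 ± 0.11, adjusted p = 1.4e-31). The groups were far apart with both tags. RPL39, upstream of which the same windows were counted in large part, had 4, 4.12 and 4.14 in Fkh1-MYC, against 0.912, 0.746 and 1.22 in fkh1-dbm-MYC (2.21 ± 0.11, adjusted p = 2.3e-27). The highest window was chromosome X 75451 to 75500, 174 bp before RPS22A and 458 bp before RPL39, at 5.19 in Fkh1-FLAG, 7.76 in Fkh1-MYC and 12.5 in G1 Fkh1-MYC (MOP). The paralog RPS22B had 1.99, 1.93 and 1.58 in Fkh1-MYC, against 1.80, 1.91 and 1.73 in fkh1-dbm-MYC, which overlap.

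A few further upstream regions rose with both tags. RPL31B had 2.62, 2.93 and 2.78 in Fkh1-MYC, against 0.720, 0.969 and 0.785 in fkh1-dbm-MYC, a log2 fold change of 1.90, with its summit 120 bp before the start codon (chromosome XII 931851 to 931900). Its paralog RPL31A had 0.583, 0.720 and 0.571 in Fkh1-MYC, against 0.693, 0.757 and 0.782 in fkh1-dbm-MYC. RPS4A had 2.51, 2.78 and 2.71 in Fkh1-MYC, against 0.885, 0.810 and 0.776 in fkh1-dbm-MYC, a log2 fold change of 1.91, with the summit at chromosome X 703501 to 703550, 458 bp before RPS4A and 360 bp before the divergent YJR146W. Its paralog RPS4B had 0.589, 0.963 and 0.800 in Fkh1-MYC, against 0.925, 1.07 and 0.868 in fkh1-dbm-MYC. So the B copy of RPL31 and the A copy of RPS4 were above the mutant in every library, and the other copies were not. For RPL26 both copies were higher: RPL26A had 1.89, 1.81 and 1.79 in Fkh1-MYC, against 1.03, 1.16 and 1.17 in fkh1-dbm-MYC, and RPL26B had 1.29, 1.31 and 1.1 in Fkh1-MYC, against 0.636, 0.802 and 0.727 in fkh1-dbm-MYC.

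In ORFs most ribosomal protein genes were lower in Fkh1 than in its mutant. With the FLAG tag 65 members were called lower and 3 higher (16.5% and 11.7% of all genes), and with the MYC tag 70 lower and 7 higher (23.9% and 21.3% of all genes). In both comparisons 58 were lower, which is 89.2% of the FLAG calls and 82.9% of the MYC calls, against 12.8% of all genes lower with both tags, and 0 members went opposite ways. The medians were -0.20 and -0.24 for members and -0.04 and -0.03 for all genes. RPL13A had 1.17, 1.13 and 1.04 in Fkh1-MYC, against 1.56, 1.64 and 1.58 in fkh1-dbm-MYC (-0.54 ± 0.07, adjusted p = 1.1e-09). RPL22B had 1.19, 1.19 and 1.18 in Fkh1-FLAG, against 1.73, 1.52 and 1.73 in fkh1-dbm-FLAG (-0.50 ± 0.08, adjusted p = 8e-06). Both genes had no overlap between groups. RPS22A was an exception, with 2.71, 2.82 and 2.76 in Fkh1-MYC, against 1.69, 1.65 and 1.77 in fkh1-dbm-MYC (0.76 ± 0.09, adjusted p = 1.2e-12), and the other members higher with both tags were RPS1B and RPS16A, where 11% of all genes were higher with both. The paralog RPS22B, whose ORF holds the snoRNA gene SNR44, had 1.6, 1.65 and 1.56 in Fkh1-MYC, against 2.08, 2.06 and 1.82 in fkh1-dbm-MYC. RPS22A and RPS1B also had the largest upstream rise over the mutant with both tags. Whether that upstream signal reaches into their ORFs was not tested. Without fkh1-dbm-FLAG replicate 2 the lower FLAG calls were 41, without fkh1-dbm-FLAG replicate 1 the higher FLAG calls were 1, without fkh1-dbm-MYC replicate 3 the higher MYC calls were 4, and all 60 libraries in 1 fit called 2 and 35 lower and 1 and 3 higher with FLAG and MYC. Of the other lists, 4 of 5 P-stalk genes, 6 of 8 elongation factor genes and 11 of 19 biogenesis genes were called lower in Fkh1-MYC, and 11 of 56 mitochondrial ribosomal protein genes were higher and 8 lower.

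**Figure D4:**
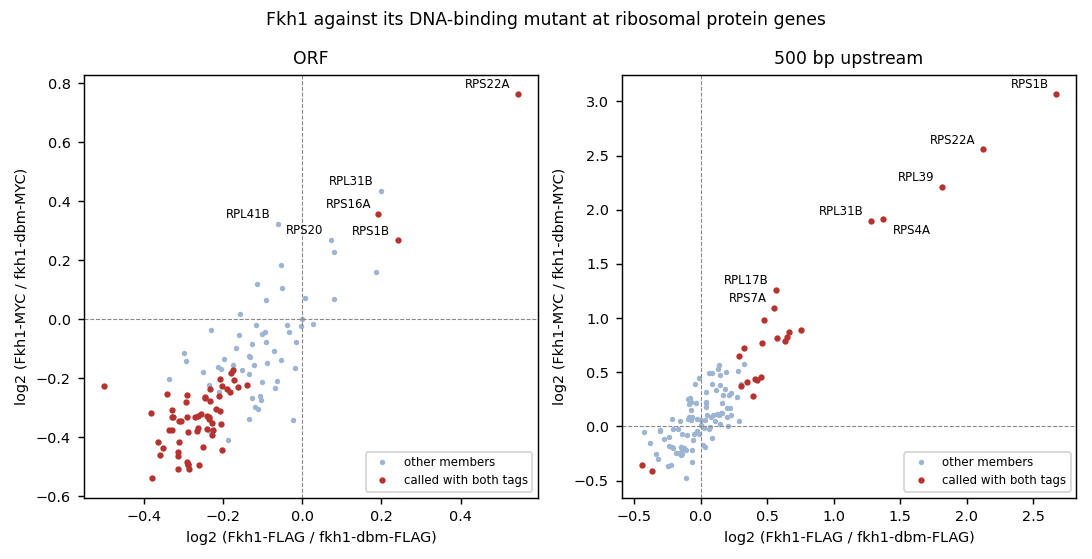
Log2 ratio of Fkh1 to fkh1-dbm with the FLAG tag (horizontal) and the MYC tag (vertical) for each of the 118 ribosomal protein genes, in ORFs (left) and upstream (right). Genes called by edgeR with both tags are red: 58 ORFs lie below 0 on both axes, and upstream RPS1B (2.67 and 3.07) and RPS22A (2.12 and 2.56) lie farthest out, while the smaller upstream changes depend on the scaling.

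Against untagged cells the Fkh1 libraries showed both the fall with FLAG and the peaks. In Fkh1-FLAG 115 ORFs were called lower and 1 higher (22.1% and 15.8% of all genes, median -0.57 for members and -0.03 for all genes), with 3.26, 3.04 and 3.33 at RPL3 in Fkh1-FLAG, against 7.91, 7.15 and 7.64 in untagged cells. The 1 higher was RPL15B (0.25 ± 0.10, adjusted p = 0.043), which was not called without untagged replicate 1 or Fkh1-FLAG replicate 2 or 3 (0 members higher), while 2 members were higher without Fkh1-FLAG replicate 1. In Fkh1-MYC 27 ORFs were higher and 1 lower (10% and 15% of all genes), led by RPS22A (1.35 ± 0.15, adjusted p = 1.6e-05), and 15, 13 and 15 were higher without Fkh1-MYC replicates 1, 2 and 3. The 1 lower ORF was RPL13A (-0.47 ± 0.11, adjusted p = 0.0094), and the count of lower ORFs was 0 without Fkh1-MYC replicate 2 or 3, 2 without untagged replicate 1 and 3 without untagged replicate 3. Upstream, 15 members were higher and 31 lower in Fkh1-FLAG (22.7% and 8.17% of all genes), and 17 higher and 1 lower in Fkh1-MYC (15.3% and 7.95%), where 36 were higher without untagged replicate 3 and 11 without Fkh1-MYC replicate 3. These comparisons share the untagged libraries with those of the LexA controls and of fkh1-dbm, and the Fkh1 libraries with the comparison against fkh1-dbm.

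With the LexA construct in both strains, ORFs of ribosomal protein genes had medians close to 0. Fkh1-FLAG (FLOP) against FLOP had 9 ORFs higher and 13 lower (16% and 9.62% of all genes), and Fkh1-MYC (MOP) against MOP had 6 higher and 6 lower (10.5% and 2.07%). The medians of members were -0.02 and -0.01, and those of all genes 0.00 and 0.02. RPS22A led both, with log2 fold changes of 0.86 ± 0.09 (adjusted p = 2.7e-09) and 0.98 ± 0.16 (adjusted p = 6.3e-06). The 13 lower ORFs were 8, 8 and 7 without FLOP replicates 1, 2 and 3 and 7 without Fkh1-FLAG (FLOP) replicate 2, and 0 with all 60 libraries in 1 fit, which called 3 higher. The 6 lower in Fkh1-MYC (MOP) were 3 and 2 without MOP replicates 1 and 3 and 1, 3 and 3 without Fkh1-MYC (MOP) replicates 1, 2 and 3.

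Upstream, 39 members were higher and 1 lower in Fkh1-FLAG (FLOP) than in FLOP (21.9% and 5.09% of all genes), and 19 higher and 3 lower in Fkh1-MYC (MOP) than in MOP (16.1% and 2.17%). The FLAG median was 0.20 for members and 0.04 for all genes, and TMM normalization gave 35 higher and 5 lower and DESeq2 38 and 9. RPS1B had 4.15, 4.96 and 6.75 in Fkh1-FLAG (FLOP), against 0.652, 0.839 and 0.867 in FLOP (2.88 ± 0.18, adjusted p = 1e-19). It had 6.54, 6.11 and 6.37 in Fkh1-MYC (MOP), against 1.12, 0.735 and 1.11 in MOP (2.88 ± 0.18, adjusted p = 1.7e-25). Every library with tagged Fkh1 was above every control library. The count of lower FLAG members was 2 without FLOP replicate 1 or without Fkh1-FLAG (FLOP) replicate 1 or 3. The MYC count of 19 higher was 12 without MOP replicate 2 or Fkh1-MYC (MOP) replicate 3, and 12 with DESeq2, and its 3 lower were 5 without MOP replicate 2. With all 60 libraries in 1 fit the FLAG count was 19 higher.

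The same pairs were compared in G1 cells. Fkh1-FLAG (FLOP) against FLOP had 0 ORFs called (3 members had an unadjusted p below 0.05, DESeq2 called 0, and 0.73% of all genes were higher and 0.0192% lower), with 10 upstream regions higher and 0 lower (6.55% and 0.0768% of all genes). Fkh1-MYC (MOP) against MOP had 2 ORFs higher, RPS22A and RPS1B, and 26 lower (15.9% and 3.9% of all genes), with a median of -0.25 for members and 0.05 for all genes. RPS4B had 2.18, 1.89 and 2.17 in G1 Fkh1-MYC (MOP), against 3.74, 4.08 and 5.33 in G1 MOP (-1.02 ± 0.13, adjusted p = 2.7e-10). RPL32 had 1.12, 1.19 and 1.37 in G1 Fkh1-MYC (MOP), against 2.31, 1.94 and 2.55 in G1 MOP (-1.01 ± 0.25, adjusted p = 0.00099). For both genes the groups did not overlap, and G1 MOP was the LexA control in which ribosomal protein ORFs stood highest, with a log2 ratio to all genes of 0.58 ± 0.06, against 0.25 ± 0.17 in unsynchronized MOP (SD, n = 3 each). The 26 were 16 without G1 MOP replicate 1, 14 without G1 Fkh1-MYC (MOP) replicate 3, 42 with DESeq2 and 45 with all 60 libraries in 1 fit, which called 5 higher.

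Upstream in G1, RPS1B had 2.61, 2.93 and 2.79 in Fkh1-FLAG (FLOP), against 0.688, 0.717 and 1.07 in FLOP (1.93 ± 0.17, adjusted p = 1.2e-17). It had 7.88, 10.3 and 10.4 in Fkh1-MYC (MOP), against 1.55, 1.2 and 1.28 in MOP (2.90 ± 0.22, adjusted p = 2.2e-20). RPS22A had 7.44, 7.37 and 7.30 in G1 Fkh1-MYC (MOP), against 1.89, 1.91 and 1.56 in G1 MOP. The MYC comparison had 16 upstream regions higher and 10 lower (21.5% and 3.36% of all genes), and TMM normalization turned this to 13 higher and 22 lower. The 10 were 5 without G1 MOP replicate 3 and 4 without G1 Fkh1-MYC (MOP) replicate 1, 23 with DESeq2 and 18 with all 60 libraries in 1 fit. The all-gene median there was 0.14, and that of members -0.04.

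The comparisons of Fkh1 with fkh1-dbm (FLAG and MYC), FLOP, MOP, G1 FLOP and G1 MOP share no library. Upstream regions of 6 members were called higher in all 6 of them: RPS1B, RPS22A, RPL39, RPS4A, RPL31B and RPL26A. This was so for 5.19% of all genes, a share close to that of the members. RPS22A and RPL39 share a summit and most of their upstream windows, so that site enters the count with both genes. RPS1B had log2 fold changes of 2.67, 3.07, 2.88, 2.88, 1.93 and 2.90 in that order, and those of RPS22A lay between 1.42 (G1 FLOP) and 2.56 (fkh1-dbm-MYC). RPL31B had 1.28, 1.90, 1.73, 1.55, 0.92 and 1.68. A further 7 members were called higher in 5 of the 6, among them RPL17B, RPL28, RPL41B, RPL35B, RPL36B and RPL9B, so that 13 members were called in at least 5, against 11.6% of all genes, and 49 of the 118 were called in none in either direction, against 44.7% of all genes. The smallest change of each of the 3 genes was in G1 with the FLAG tag. In ORFs RPL13A, RPS0B and RPL20A were lower in 5 of the 6, where 0.307% of all genes were lower in at least 5. RPS22A and RPS1B were higher in 5, where 5.94% of all genes were higher in at least 5. RPL13A had log2 fold changes between -0.54 and -0.06. RPS16A was higher in 4, and 29 members were called in none, against 40.2% of all genes.

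**Figure D5:**
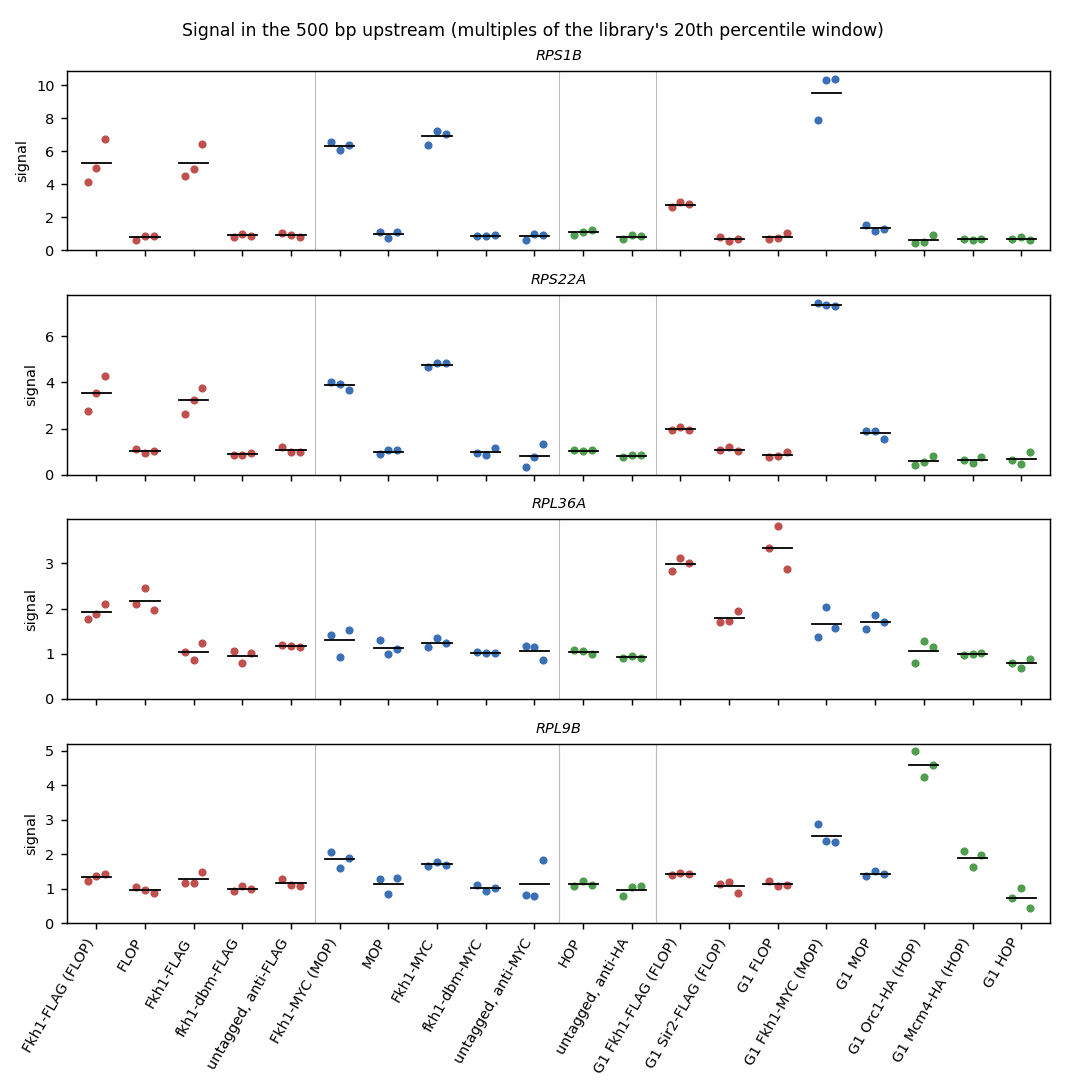
Signal in the 500 bp upstream of RPS1B, RPS22A, RPL36A and RPL9B in each library (points) with group means (bars), in multiples of the library's 20th percentile window and with a separate vertical axis from 0 for each gene. RPS1B and RPS22A are high in the groups with tagged wild-type Fkh1 and not in fkh1-dbm, RPL36A is highest in G1 FLOP (2.88 to 3.82), and RPL9B is highest in G1 Orc1-HA (HOP) (4.24 to 4.98).

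Orc1-HA and Mcm4-HA, a subunit each of the origin recognition complex and of the replicative helicase, were compared with HOP in G1 cells. Mcm4-HA left ribosomal protein ORFs below the rest of the genome. In Mcm4-HA (HOP) 85 members were called lower and 0 higher than in HOP (17.1% and 4.57% of all genes), with a median of -0.64 for members and -0.15 for all genes. Their median ORF signal was 0.981, against 1.33 for all genes in the same libraries, and 5 of 118 were above that genome median. RPS14B had 0.987, 0.919 and 1.06 in Mcm4-HA (HOP), against 2.15, 1.86 and 1.99 in HOP (-1.02 ± 0.16, adjusted p = 4.2e-07). Its paralog RPS14A had 0.835, 0.983 and 0.961 in Mcm4-HA (HOP), against 1.38, 1.49 and 1.22 in HOP. RPS15, which has no paralog, had 0.450, 0.817 and 0.562 in Mcm4-HA (HOP), against 1.28, 1.12 and 0.965 in HOP (-0.96 ± 0.25, adjusted p = 0.0023). None of these 3 genes had overlapping groups. The count was 52 without Mcm4-HA (HOP) replicate 3, 52 with TMM normalization and 56 with DESeq2. Of the other lists, 6 of 8 elongation factor genes (median -0.66), 4 of 5 P-stalk genes (median -0.55) and 5 of 19 biogenesis genes were called lower, while 2 of 56 mitochondrial ribosomal protein genes were higher and 3 lower.

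In Orc1-HA (HOP) 12 ORFs were lower than in HOP and 1 higher (17.4% and 6.17% of all genes), with a median of -0.22 for members and -0.18 for all genes. The 1 higher was RPS6B, which encodes a phosphorylated small-subunit protein, with 4.25, 3 and 3.88 in Orc1-HA (HOP), against 1.76, 1.97 and 2.26 in HOP (0.82 ± 0.12, adjusted p = 1.3e-06). Its paralog RPS6A had 1.6, 1.71 and 1.31 in Orc1-HA (HOP), against 1.67, 1.44 and 2.16 in HOP. The groups were apart for RPS6B and overlapped for RPS6A. RPL2A had 0.849, 0.958 and 1.35 in Orc1-HA (HOP), against 1.56, 1.56 and 1.96 in HOP (-0.72 ± 0.18, adjusted p = 0.0021). The 12 lower were 4 without Orc1-HA (HOP) replicate 1 and 7 without its replicate 3, and TMM normalization called 3 lower and 3 higher, DESeq2 4 and 3, and all 60 libraries in 1 fit 28 and 2. The 1 higher was 2 without G1 HOP replicate 1.

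Upstream, 1 member carried signal with both proteins. RPL9B, a large-subunit gene, had 4.98, 4.24 and 4.58 in Orc1-HA (HOP), against 0.730, 1.02 and 0.436 in HOP (2.62 ± 0.23, adjusted p = 8.1e-12). It had 2.09, 1.63 and 1.97 in Mcm4-HA (HOP), against the same HOP libraries (1.33 ± 0.23, adjusted p = 1.2e-05). Every Orc1-HA and Mcm4-HA library was above every HOP library. The highest window lay at chromosome XIV 499201 to 499250, 456 bp before the start codon, with 8.48 in Orc1-HA (HOP) and 3.34 in Mcm4-HA (HOP), and the annotated gene YNL067W-B (499417 to 499557) lies between it and RPL9B. The paralog RPL9A had 0.622, 0.682 and 0.625 in Orc1-HA (HOP), against 0.724, 0.776 and 0.927 in HOP. Besides RPL9B, RPL35B was called higher in Orc1-HA (HOP), and RPL24B and RPL23B lower (2 and 2 members, 7.34% and 1.52% of all genes). RPL35B and RPL23B were not called when any of several libraries was left out (counts of 1 higher and 1 lower without G1 HOP replicate 2 or Orc1-HA (HOP) replicate 2 or 3). In Mcm4-HA (HOP) 5 were lower and 1 higher (2.44% and 4.32% of all genes), with RPL24B at 0.726, 0.618 and 0.866, against 1.56, 1.62 and 1.35 in HOP (-1.09 ± 0.22, adjusted p = 0.00026). The 5 were 3 without G1 HOP replicate 1, 2 without any 1 of the Mcm4-HA (HOP) replicates, 11 with DESeq2 and 25 with all 60 libraries in 1 fit. Orc1-HA and Mcm4-HA share the HOP libraries, so that their values are given side by side and not as independent.

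Sir2-FLAG (FLOP), the histone deacetylase of silent chromatin, was compared with FLOP in G1 cells. In ORFs 13 members were called higher and 3 lower, against 25.2% and 3.92% of all genes, and the median was 0.12 for members and 0.18 for all genes. RPS31, which encodes a fusion of ubiquitin and a small-subunit protein, had 3.09, 4.13 and 3.21 in Sir2-FLAG (FLOP), against 1.65, 1.81 and 1.75 in FLOP (1.1 ± 0.15, adjusted p = 0.00043). RPS22B, whose ORF holds the snoRNA gene SNR44, had 2.57, 2.33 and 2.11 in Sir2-FLAG (FLOP), against 1.46, 1.66 and 1.31 in FLOP (0.66 ± 0.13, adjusted p = 0.0044). Both genes had groups apart, and RPS31 had 4.72, 6.23 and 5.77 in G1 MOP. The lower members were RPL43A (-0.68 ± 0.14, adjusted p = 0.0046), RPL27A and RPL39. The direction of the family depended on scaling: TMM normalization called 7 higher and 21 lower with a median of -0.08, and DESeq2 8 and 23. The 13 higher were 4 and 5 without G1 FLOP replicates 1 and 2 and 8 and 21 without Sir2-FLAG (FLOP) replicates 1 and 3, and the 3 lower were 1 without G1 FLOP replicate 1 or 2 and 6 without Sir2-FLAG (FLOP) replicate 2. With all 60 libraries in 1 fit 24 were higher and 7 lower. Of 4 regulator genes, 4 were called higher (median 0.50), and of 8 elongation factor genes 3 were higher and 1 lower.

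Upstream, 13 members were higher and 10 lower in Sir2-FLAG (FLOP) (12.1% and 12.4% of all genes). RPL37A had 1.35, 1.83 and 1.40 in Sir2-FLAG (FLOP), against 0.583, 0.790 and 0.838 in FLOP (1.06 ± 0.15, adjusted p = 4.4e-06). RPL36A had 1.70, 1.74 and 1.96 in Sir2-FLAG (FLOP), against 3.35, 3.82 and 2.88 in FLOP (-1.04 ± 0.20, adjusted p = 0.00022). The upstream region of RPL36A was higher in FLOP than in untagged cells when both were unsynchronized. In G1 it was lower in the strain that carries Sir2-FLAG beside FLOP than in FLOP alone. The data hold no untagged G1 libraries. The 13 higher were 3 and 7 without G1 FLOP replicates 1 and 2 and 6, 8 and 21 without Sir2-FLAG (FLOP) replicates 1, 2 and 3, and the 10 lower were 6 without G1 FLOP replicate 2 or 3. TMM normalization called 11 and 13, DESeq2 18 and 18, and all 60 libraries in 1 fit 8 higher.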

How the data were processed

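Reads were mapped and counted by the authors: paired-end libraries were demultiplexed with fastq-multx, aligned with Bowtie2 to the S. cerevisiae genome, cleared of duplicates with SAMtools and counted with bedtools, tools that the study's methods and the submitters' processing notes name. The deposited unit is the raw count of reads overlapping each 50 bp window. Columns of other series numbered 0. The study took the genome sequence from the Saccharomyces Genome Database, chromosomes end in the files where they do in R64, and names and positions come from the RefSeq gene table of that assembly.

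The signal of a gene is the mean over its windows after a moving median of 10 windows, divided by the library's 20th percentile window. For tests, unsmoothed window counts were summed per gene, and edgeR 4.0.16 (quasi-likelihood, limma 3.58.1, R 4.3.3) was fitted to the 6 libraries of a comparison, with library sizes set from the 20th percentile and genes kept at 10 counts or more in at least 3 libraries. A read spanning adjacent windows counts in each, so window counts are not independent molecules. DESeq2 1.42.0, TMM normalization, no filter, all 60 libraries in 1 fit, a replicate block, leaving out each library, and upstream windows outside other ORFs were alternatives. Python 3.11.15, numpy 2.4.6, pandas 2.3.3 and matplotlib 3.10.9 did the rest. Tested on simulated data, 200 of 200 genes changed 1.5-fold were recovered for FLOP against untagged cells (16 false calls among 5208 genes), and 105 of 200 for MOP against untagged cells (193 of 200 at 2-fold). The simulation gave all genes the same dispersion and changed as many genes up as down. These rates may thus not hold for the real libraries.

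Named genes were, per comparison and table, the 3 highest and 3 lowest log2 fold changes among called members whose groups did not overlap, the 3 highest and lowest ORF signals per untagged or LexA control group, and their paralogs. Members and lists were chosen with earlier results of these data known. Same replicate numbers did not pair libraries: in 0 of 16 comparisons did all 3 numbers correlate above 0.1. In 2 groups, Fkh1-FLAG (FLOP) and Mcm4-HA (HOP), the strain number in the labels differs from the study's strain list, and the genotype given in the labels was used. Values of some members are not reported here.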

Additional observations from a re-analysis of the deposited data

Results flagged for a closer look

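The following members changed differently in 2 settings of the same contrast, by edgeR's test of the difference (adjusted over all genes). In ORFs the change from untagged cells was more negative in FLOP than in MOP for 103 members and more negative in FLOP than in HOP for 116, while 0 members were called lower in MOP or in HOP against untagged cells. Upstream of the start codon, 11 members changed more negatively in FLOP than in MOP (1.71% of all genes), with counts of 6, 24, 7, 7 and 7 without untagged anti-FLAG replicate 1, untagged anti-MYC replicate 3, FLOP replicates 1 and 3 and MOP replicate 3. In a separate test over the same members, 49 changed more negatively in FLOP than in HOP (5.36%). In both, 2 members changed more positively, among them RPL36A by 0.95 ± 0.22 and 0.77 ± 0.16 on the log2 scale (3.11% and 4.78% of all genes).

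Between G1 and unsynchronized cells, the change from FLOP to Fkh1-FLAG (FLOP) was more negative in G1 for 2 ORFs, RPL39 (-0.67 ± 0.13, adjusted p = 0.01) and RPS1B (-0.58 ± 0.14, adjusted p = 0.045), where 1.4% of all genes were called. It was more negative for 4 upstream regions, RPS1B (-0.95 ± 0.24), RPS4A (-0.92 ± 0.20), RPL31B (-0.81 ± 0.20) and RPS7A (-0.64 ± 0.18), where 2.5% of all genes were called. The ORF count was 0 without Fkh1-FLAG (FLOP) replicate 3 and 1 without its replicate 2, any of FLOP replicates 1, 2 and 3, G1 FLOP replicate 2 or 3, or G1 Fkh1-FLAG (FLOP) replicate 1 or 3. The upstream count was 1 without FLOP replicate 1 or Fkh1-FLAG (FLOP) replicate 3, 7 without Fkh1-FLAG (FLOP) replicate 1, and 2 without G1 FLOP replicate 3 or G1 Fkh1-FLAG (FLOP) replicate 3. With the MYC tag, 1 ORF, RPS4B (-0.77 ± 0.18, adjusted p = 0.0068), and 1 upstream region were more negative in G1 (0.384% and 0.25% of all genes). The ORF count was 3 without MOP replicate 3 and 2 without Fkh1-MYC (MOP) replicate 2, G1 MOP replicate 1, or G1 Fkh1-MYC (MOP) replicate 1 or 2, and the upstream count was 0 without G1 Fkh1-MYC (MOP) replicate 2. These genes were named after their values were seen.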

How the results depend on the processing

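The difference between the median log2 fold change of members and that of all genes moved by less than the spread between libraries, and kept its sign, in all 42 comparisons and differences under TMM normalization, DESeq2, no filter, all 60 libraries in 1 fit and a replicate block. It also moved by less in all 312 leave-one-library-out fits and all 21 without upstream windows in other ORFs, where its sign changed in 17 and 1, with all libraries at sizes of at most 0.116 and 0.0153. With only the members that have no paralog, an alternative chosen after seeing the data, this difference of medians moved by more than the spread in 16 of 32 comparisons and changed sign in 5. In ORFs it became -1.10 for FLOP, 0.396 for HOP, -0.577 for fkh1-dbm-FLAG, 0.785 for fkh1-dbm-MYC, -0.736 for Fkh1-FLAG and 0.491 for Fkh1-MYC, each against untagged cells, 0.0310 for Fkh1-FLAG (FLOP) against FLOP, and in G1 -0.214 for Fkh1-MYC (MOP) and -0.0102 for Sir2-FLAG (FLOP). Upstream it became -0.407 for FLOP, 0.407 for HOP and -0.286 for fkh1-dbm-FLAG against untagged cells, 0.121 for Fkh1-MYC against fkh1-dbm-MYC, 0.233 for Fkh1-FLAG (FLOP) against FLOP, and in G1 -0.0491 for Fkh1-MYC (MOP) and 0.0172 for Orc1-HA (HOP). Without the moving median, the log2 ratio of members to all genes was 0.184 for HOP, -0.416 for G1 Mcm4-HA (HOP) and 0.172 for G1 Sir2-FLAG (FLOP) in ORFs and -0.135 for fkh1-dbm-MYC upstream. The cause of these moves was not tested.

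Counts of called members that moved by over 1.5 times and are not given above were as follows. With all 60 libraries in 1 fit, upstream calls were 15 lower for FLOP (32) and 13 lower for Fkh1-FLAG against untagged cells (31), 3 lower for Fkh1-MYC against untagged cells (1), 4 higher and 11 lower for Orc1-HA (2 and 2), 19 lower for FLOP minus HOP (49), and in the G1 difference with FLAG 0 ORFs (2) and 1 upstream region (4) and with MYC 7 ORFs (1), 1 upstream region higher (0) and 2 lower (1). That fit also called 1 ORF in MOP minus HOP (0), 2 lower in Fkh1-MYC against untagged cells (1) and 0 higher in Fkh1-FLAG against untagged cells (1), where TMM and DESeq2 called 2. TMM called 15 upstream regions in HOP (25) and 1 higher in Orc1-HA (2). DESeq2 called 4 ORFs in the G1 difference with MYC, 4 upstream regions lower in Fkh1-MYC against untagged cells, 17 in FLOP minus MOP (11), 23 and 12 lower and higher in G1 Fkh1-MYC (MOP), and 17 and 26 lower in Fkh1-FLAG and Fkh1-MYC against fkh1-dbm. Without upstream windows in other ORFs, fkh1-dbm-MYC had 1 higher (2), Fkh1-FLAG (FLOP) 2 lower (1) and the G1 difference with FLAG 1 higher (0). Replicate numbers do not pair the libraries. The replicate block gave 16 upstream regions in HOP (25), 3 lower ORFs in Fkh1-MYC (MOP) (6), 7 higher and 1 lower ORFs (13 and 3) and 7 higher upstream regions (13) in Sir2-FLAG (FLOP), and moved no other count of members by over 1.5 times. Of 132 named results, 3 were not called with DESeq2, 2 with TMM, 15 with all 60 libraries, 4 with the block and 0 without the filter, nor were 2 of 68 without upstream windows in other ORFs and 91 of 792 leave-one-library-out values. An alternative based on sequence that occurs elsewhere in the genome was not run, since no genome was used here, so reads shared between paralogs limit the values of single paralogs.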
